A study of Mus musculus with 4 samples.

Results

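The genes examined here make or clear lipid mediators derived from arachidonic acid, namely prostaglandins, leukotrienes and epoxides. The list held 10 genes of 45802 gene symbols in the deposited table: *Ptgs1*, *Ptgs2*, *Ptges*, *Ptgis*, *Ptgds*, *Hpgd*, *Slco2a1*, *Alox5*, *Alox5ap* and *Ephx2*. All 10 were found by symbol, and 9 of them had a value in all 4 libraries, as did 14415 genes in total. The genes were selected on their values in these same libraries, so that their differences are given as a description and no test of them is reported.

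The cells were CD31-CD45-Ter119- periosteal stromal cells of the femurs and tibias of male Pdgfrα-mTmG mice, 9 to 10 weeks old. These animals carry a *Pdgfra*-driven, tamoxifen-inducible Cre and the mT/mG reporter, so that cells with an active *Pdgfra* promoter at the time of tamoxifen change from membrane tdTomato to membrane GFP. Tamoxifen was given at 150 mg/kg per day for 5 days, and the limbs were collected 14 days after the last dose. All cells were expanded for 1 passage with 10 ng/mL bFGF and then sorted into PDGFRα reporter+ (mGFP+) and PDGFRα reporter- (mTdtomato+) cells. Both populations thus came from animals with the same alleles and treatment, and by the labels each population was obtained from 3 to 6 mice, while the methods give another range. Total RNA was sequenced in 2 libraries of each population, and the comparison asks how the reporter+ and reporter- populations differ in expression. The table heads its columns with the population and the number 2 or 3, which are not the replicate numbers of the sample labels, and whether a number marks a shared cell preparation is not given in the sources used here. Libraries are therefore named by population and number, and a pair means the reporter+ and the reporter- library with the same number. No source says that the 2 libraries of a population were separate cultures, and whether their spread is biological or technical was not tested. Across genes, the deviations of libraries from their population mean had a correlation of 0.681 between libraries of the same number.

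Values are log2 expression values that the authors quantile normalized. The quantity under the logarithm is not given, so that genes are not ranked by level. Where a value is set against the range of its library or summed over a list of markers, this is on the deposited scale, on which the weight of each gene is unknown. The sequencing depth is unknown, and no counting error can be attached to a value. The libraries listed values for 15423 to 15605 genes, with a lower quartile of −1.47 and a median of 1.48, each averaged over the 4 libraries. Across genes, which are not independent replicates, Pearson's r was 0.984 between the libraries numbered 2 and 0.982 between those numbered 3, but 0.952 within reporter+ and 0.957 within reporter- cells. The stromal label was checked on 10 markers, all with a value in every library and a log2 mean of 0 or more. The defining ones, *Pdgfra* (7.44 to 7.87), *Col1a1* (7.44 to 7.85) and *Prrx1* (3.51 to 4.22), overlapped between populations. *Postn* was below 0 in 1 library, at −1.13 and 2.04 in reporter+ and 0.14 and 3.04 in reporter- libraries 2 and 3. *Lum* and *Dcn* were higher in reporter+ cells without overlap, by 1.83 and 1.39, and *Ly6a* was lower (−0.21).

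Eicosanoid synthesis begins when a phospholipase A2 frees arachidonic acid from membranes. The cyclooxygenases Ptgs1 (COX-1, largely constitutive) and Ptgs2 (COX-2, inducible) turn it into prostaglandin H2, from which terminal synthases make prostaglandin E2 (Ptges), prostacyclin (Ptgis) or prostaglandin D2 (Ptgds). Slco2a1 takes prostaglandins up into the cell, where Hpgd oxidizes and inactivates them. In a separate branch, Alox5 acts with its membrane partner Alox5ap (FLAP) to make leukotrienes, and Ephx2, the soluble epoxide hydrolase, converts arachidonate epoxides to diols. In bone, prostaglandin E2 is known to act on both osteoblasts and osteoclasts and to take part in fracture repair.

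Of the 10 genes, 4 lie on chromosome 2 (*Ptgs1*, *Ptges*, *Ptgis* and *Ptgds*), and the others lie on chromosomes 1 (*Ptgs2*), 5 (*Alox5ap*), 6 (*Alox5*), 8 (*Hpgd*), 9 (*Slco2a1*) and 14 (*Ephx2*). All are protein coding in RefSeq on GRCm38.p6, the build that the submitters' processing notes name. In GENCODE M21, 6 of them overlap other annotated genes, none of which had a value in any library. RefSeq promoter sequences were at hand for 7 of the 10 genes. The 250 bases before the start are shown for *Slco2a1*, the gene whose populations did not overlap, and for the cyclooxygenase genes *Ptgs1* and *Ptgs2*, whose patterns across libraries differed. All 3 are on the plus strand, written 5′ to 3′, and capitals mark matches to the motifs searched. The windows are chr9:103008237-103008486 for *Slco2a1*, chr2:36230176-36230425 for *Ptgs1* and chr1:150099781-150100030 for *Ptgs2*. The table gives 1 start per gene. That of *Ptgs2* is the outermost start of the RefSeq gene, whereas those of *Slco2a1* and *Ptgs1*, and likewise of *Ptges* and *Ptgds*, lie inside the span of the gene, so that sequence before further upstream starts was not searched.
Slco2a1: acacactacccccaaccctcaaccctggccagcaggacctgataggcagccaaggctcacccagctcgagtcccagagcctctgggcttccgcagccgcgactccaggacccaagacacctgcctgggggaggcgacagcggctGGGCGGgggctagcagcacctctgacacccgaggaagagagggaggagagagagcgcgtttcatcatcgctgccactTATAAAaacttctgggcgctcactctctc
Ptgs1: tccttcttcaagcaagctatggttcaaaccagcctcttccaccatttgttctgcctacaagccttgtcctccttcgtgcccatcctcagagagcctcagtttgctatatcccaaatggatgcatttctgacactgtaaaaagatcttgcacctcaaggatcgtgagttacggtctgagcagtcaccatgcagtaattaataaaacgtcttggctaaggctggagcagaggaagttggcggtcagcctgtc
Ptgs2: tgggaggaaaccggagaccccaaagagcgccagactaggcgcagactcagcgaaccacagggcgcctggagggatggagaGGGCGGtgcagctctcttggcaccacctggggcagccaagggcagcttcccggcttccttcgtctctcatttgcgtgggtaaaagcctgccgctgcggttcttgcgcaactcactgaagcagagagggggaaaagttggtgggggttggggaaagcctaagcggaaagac

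Both strands were searched for the letters GGGCGG of the GC box, for TATAAA of the TATA box, for TGACGTCA of the cyclic AMP response element and its shorter core TGACG (which every full element contains), for TGAGTCA of the AP-1 site, for CACGTG of the E-box, and for the NF-κB forms GGACTTTCC and GGAATTTCC. The *Slco2a1* window held a TATA box 29 to 24 bases before the start and a GC box 106 to 101 bases before it. The *Ptgs2* window held 1 GC box, 170 to 165 bases before the start, and the *Ptgs1* window held none of these letters. A GC box was in 5 of the 7 windows (*Ptgs2*, *Ptges*, *Hpgd*, *Slco2a1* and *Alox5*), compared with 32.7% of all 32851 promoter windows of this length in the table. The TATA letters were in 1 of the 7, compared with 12.4% of all windows, and the AP-1 site in 1 (*Ptgds*), compared with 4.46%. No window of the 7 held the cyclic AMP element (1.55% of all), its core (17.8%), the E-box (6.02%) or either NF-κB form (0.283% and 0.286%). Sequence further upstream or after the start was not searched for any gene, *Ptgs2* included, so that motifs there are not excluded.

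**Figure D1:**
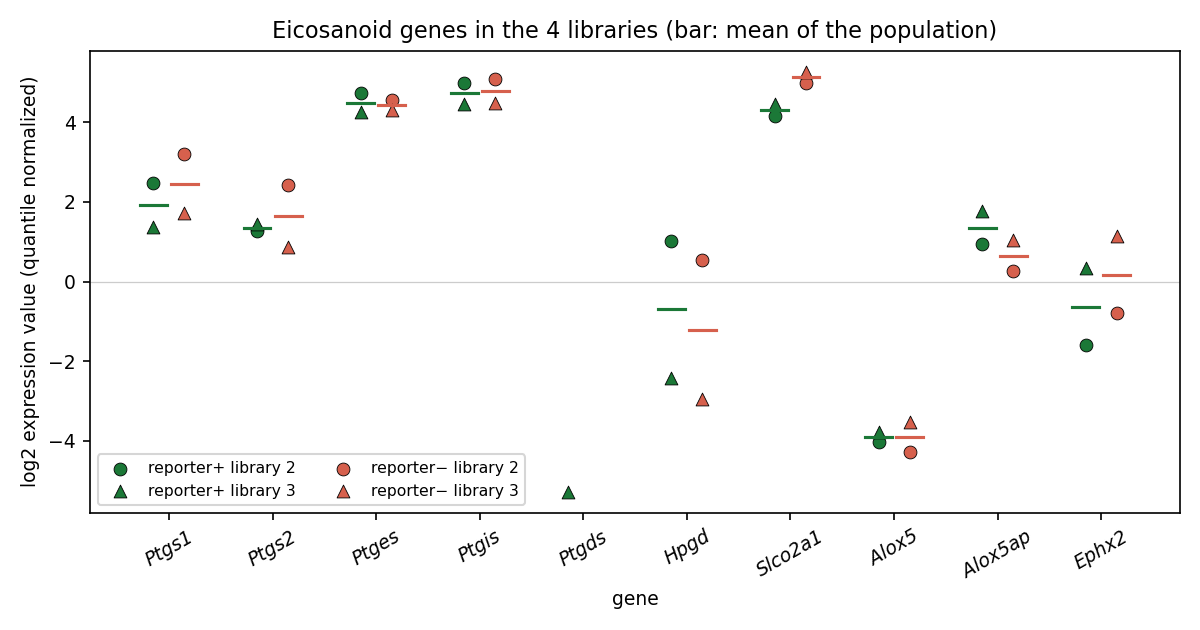
Log2 expression values (vertical axis, quantile normalized) of the 10 genes (horizontal axis) in the 4 libraries, with reporter+ libraries in green, reporter- libraries in red, number 2 as circles, number 3 as triangles and bars at the population means. The populations are apart only for *Slco2a1*, at 4.15 and 4.47 against 4.99 and 5.27, and *Ptgds* has a single value of −5.28.

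The initiating enzymes of the prostaglandin branch were read in every library. *Ptgs1* had log2 values of 2.47 and 1.36 in reporter+ libraries 2 and 3 and of 3.21 and 1.72 in reporter- libraries 2 and 3. The populations overlapped, since library 2 was the higher in each of them, but within each number the reporter+ library was the lower, with differences of −0.73 for number 2 and −0.36 for number 3. The mean was 1.92 ± 0.79 (SD, n = 2) in reporter+ and 2.46 ± 1.05 (SD, n = 2) in reporter- cells, a log2 difference of −0.55 or 1.46-fold. This was smaller than the SD of either population. With 2 libraries, that SD is set by the gap of number 3 to number 2, −1.12 in reporter+ and −1.49 in reporter- cells.

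*Ptgs2*, the inducible isoenzyme, did not follow *Ptgs1*. Its log2 values were 1.26 and 1.45 in reporter+ libraries 2 and 3 and 2.42 and 0.86 in reporter- libraries 2 and 3. Reporter- library 2 was the highest and reporter- library 3 the lowest, with both reporter+ libraries between them. The pair numbered 2 gave a difference of −1.16 and the pair numbered 3 gave 0.59, so that the directions were opposite. The log2 difference of the means, −0.29, was smaller than the reporter- SD of 1.10.

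The terminal synthases of prostaglandin E2 and prostacyclin were close to level between populations. *Ptges*, which encodes the microsomal synthase usually coupled to Ptgs2, had log2 values of 4.73 and 4.25 in reporter+ and 4.57 and 4.31 in reporter- libraries 2 and 3, a difference of 0.05 with opposite signs in the pairs (0.15 and −0.06). *Ptgis*, the prostacyclin synthase, had 5.00 and 4.46 in reporter+ and 5.08 and 4.49 in reporter- libraries, a difference of −0.06 (pairs −0.08 and −0.03). For both genes the libraries numbered 2 lay above those numbered 3 in each population. *Ptgds*, the lipocalin-type prostaglandin D2 synthase, was listed only in reporter+ library 3, at −5.28, and was blank in the other 3 libraries, so that no difference was computed.

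Uptake and inactivation were represented by *Slco2a1* and *Hpgd*. *Slco2a1*, the prostaglandin transporter, had log2 values of 4.15 and 4.47 in reporter+ libraries 2 and 3 and of 4.99 and 5.27 in reporter- libraries 2 and 3. It was the only 1 of the 9 genes whose populations did not overlap, with both reporter+ libraries below both reporter- libraries. The mean was 4.31 ± 0.22 (SD, n = 2) in reporter+ and 5.13 ± 0.20 (SD, n = 2) in reporter- cells, a log2 difference of −0.82 or 1.76-fold, and the pairs gave −0.83 and −0.80.

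*Hpgd*, which encodes 15-hydroxyprostaglandin dehydrogenase, had log2 values of 1.02 and −2.43 in reporter+ libraries 2 and 3 and of 0.55 and −2.96 in reporter- libraries 2 and 3. The number set the order of its libraries, and both libraries numbered 3 were below both numbered 2. Within each number, the reporter+ library was the higher, by 0.47 and 0.54. The difference of the means, 0.51 or 1.42-fold, was small beside the SDs of 2.44 and 2.48, and the gap of number 3 to number 2, averaged over populations, was −3.48 or 11.2-fold. With a pseudocount of 1 the difference between populations was 0.19.

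The leukotriene branch was represented by the enzyme and its partner. *Alox5ap* had log2 values of 0.94 and 1.76 in reporter+ libraries 2 and 3 and of 0.26 and 1.04 in reporter- libraries 2 and 3. Reporter+ library 2 lay below reporter- library 3, so that the populations overlapped, whereas the reporter+ library was the higher within each number, by 0.68 and 0.72. The means were 1.35 ± 0.58 (SD, n = 2) and 0.65 ± 0.55 (SD, n = 2), a log2 difference of 0.70 or 1.62-fold, and 0.46 with a pseudocount of 1.

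*Alox5* itself, the 5-lipoxygenase, had no common direction in the pairs. Its log2 values were −4.03 and −3.78 in reporter+ and −4.28 and −3.54 in reporter- libraries 2 and 3, all below the mean lower quartile of the libraries. The means were −3.91 in both populations, and the pairs gave 0.24 and −0.24.

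*Ephx2*, the soluble epoxide hydrolase, had log2 values of −1.61 and 0.34 in reporter+ libraries 2 and 3 and of −0.80 and 1.15 in reporter- libraries 2 and 3. Its libraries numbered 3 were above those numbered 2 in both populations, by 1.94 in each. The pairs gave −0.81 and −0.81, a 1.75-fold difference that was smaller than the SD of 1.37 in each population but nearly the same within each number. With a pseudocount of 1 the difference was −0.38.

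**Figure D2:**
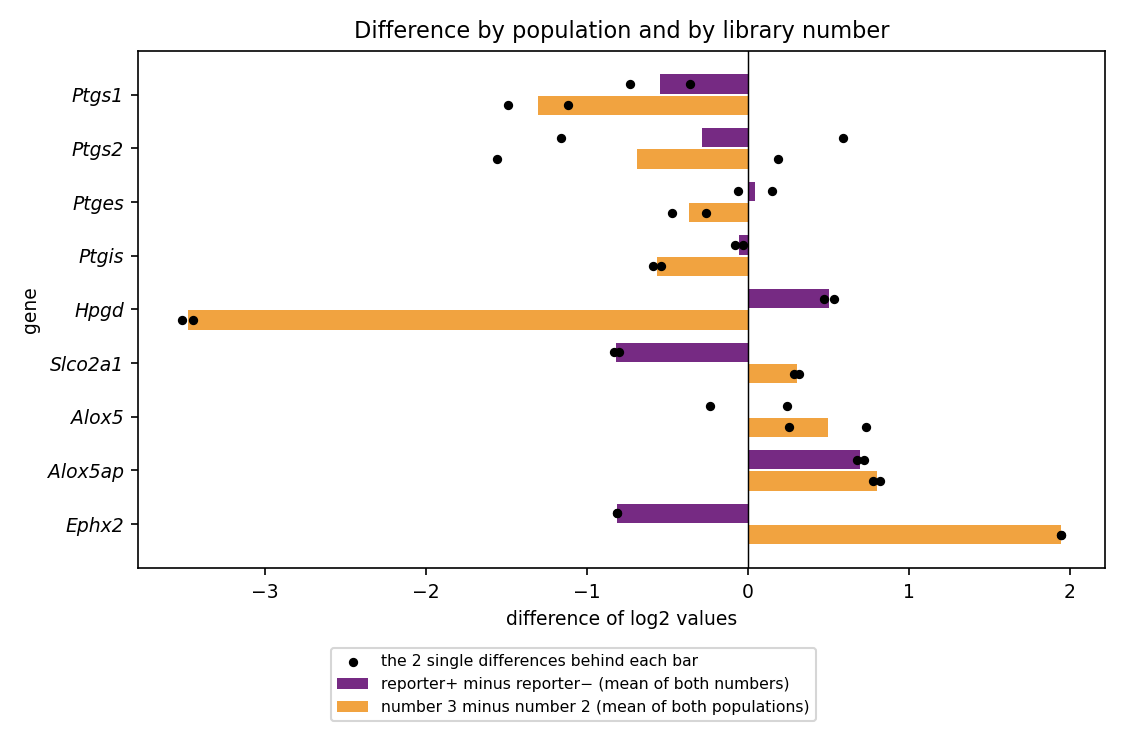
Differences of log2 values (horizontal axis) for the 9 genes that every library listed, with purple bars for reporter+ minus reporter-, orange bars for number 3 minus number 2, and points for the 2 single differences behind each bar. The orange bar is the longer for 8 of the 9 genes, most of all for *Hpgd* (−3.48), and *Slco2a1* is the exception.

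Over the 9 genes, 2 were higher in reporter+ cells within both pairs (*Hpgd* and *Alox5ap*), compared with 22.1% of all 14415 genes tested, and 4 were lower within both (*Ptgs1*, *Ptgis*, *Slco2a1* and *Ephx2*), compared with 24.8% of all genes. The pairs had opposite signs for *Ptgs2*, *Ptges* and *Alox5*. None of the 9 had both reporter+ libraries above both reporter- libraries, which held for 7.59% of all genes, and 1 had both below, which held for 8.1%. As the genes were selected on this comparison, nothing is read from these counts. The median log2 difference of the 9 genes was −0.06, compared with −0.00355 over all genes, and the differences ran from −0.82 to 0.70. With limma and Benjamini-Hochberg adjustment over all 14415 genes, the adjusted p was under 0.05 for 0 genes (0%), beside 131 with an unadjusted p under 0.05. A replicate block for the number let 29 genes pass (0.201%), beside 913 with an unadjusted p under 0.05.

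Between numbers, without regard to population, the genes were more widely apart. Both libraries numbered 3 were above both numbered 2 for *Alox5*, *Alox5ap* and *Ephx2* (3 of 9, compared with 36.4% of all genes), and below for *Ptgs1*, *Ptges*, *Ptgis* and *Hpgd* (4 of 9, compared with 28.8%). The absolute difference between numbers was larger than that between populations for 8 of the 9 genes, and for 75.7% of all genes. What the numbers stand for was not tested.

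The 4 values of some genes were then compared, each centered on the mean of the gene, with those of the 10224 genes whose log2 values averaged 0 or more (the gene itself left out), and the 3 nearest by Euclidean distance are given as a description. For *Alox5ap* they were *Igfbp3* (distance 0.081), *Prr16* (0.144) and *Ctsl* (0.165). *Igfbp3* had log2 values of 2.81 and 3.70 in reporter+ and of 2.24 and 2.99 in reporter- libraries 2 and 3. For *Ptgs1* they were *Dysf* (0.128), *2900026A02Rik* (0.153) and *Btg2* (0.190), with log2 differences between populations from −0.53 to −0.44. For *Ptgs2* they were *Cenpa* (0.256), *Anln* (0.276) and *D17H6S56E-5* (0.283), for which reporter- library 2 was likewise the highest and reporter- library 3 the lowest. For *Alox5* they were *Bcl7c* (0.050), *Ntmt1* (0.051) and *Snrpd2* (0.057), with differences between −0.02 and 0.03.

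Several of these genes are known to be active in leukocytes, endothelium or vessel walls, and markers of those cells were read in the same libraries. The cells had been sorted as negative for CD31 and CD45 before RNA was taken. In bulk RNA, fewer cells of a type and less RNA per cell cannot be told apart. Macrophages are known for *Alox5ap*, *Alox5*, *Ptgs1*, *Hpgds* and *Tbxas1* expression. All 20 macrophage markers had a value in every library, none was blank or at 0, and the log2 values of 15 averaged 0 or more. Of the 20, 18 were higher in reporter+ cells within both pairs, beside 22.1% of all genes. For 11, both reporter+ libraries were above both reporter- libraries, beside 7.59% of all genes. The median log2 difference of the 20 markers was 0.99, and none was below 0.51. Their summed linear level was 267 and 312 in reporter+ libraries 2 and 3 and 105 and 200 in reporter- libraries 2 and 3. *Lyz2* alone made up 73.4% to 76.4% of each sum, and without it the sums were 66.3 and 77.0 in reporter+ and at most 47.2 in reporter- libraries. The macrophage gene *Adgre1* differed by 1.37 and 0.89 in the pairs. *Csf1r* had log2 values of 1.08 and 1.60 in reporter+ and −0.11 and 1.13 in reporter- libraries 2 and 3, and *Ptprc*, the gene of CD45, −1.28 and −0.39 against −2.30 and −1.22. Of the listed genes named as macrophage genes, *Alox5ap* differed by 0.70, *Ptgs1* by −0.55 and *Alox5* by 0.00302. Since these genes were selected on their differences, nothing is read from a shared or opposite sign. *Hpgds* and *Tbxas1*, from the other pathway genes given below, differed by 0.83 and 0.87. The part of the marker cells in these differences was not tested. The median of the markers was 1.25 in the pair numbered 2 and 0.77 in the pair numbered 3.

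Mast cells and neutrophils are further sources of leukotrienes and prostaglandin D2. Of 7 mast cell markers, 4 had no value in any library (*Mcpt4* among the defining ones), and *Kit*, the only 1 with a value in all libraries, lay between −6.94 and −2.60. *Cpa3* was at −4.11 in reporter+ library 2 and at −4.34 and −3.98 in reporter- libraries 2 and 3. *Cma1* was at −3.97 in reporter+ library 3 and at −5.50 and −4.52 in reporter- libraries 2 and 3. Of 9 neutrophil markers, 3 had no value in any library, and 1 (*Camp*) had a value in all 4. Its values were −1.68 and 0.51 in reporter+ and −1.85 and −0.87 in reporter- libraries 2 and 3. Of the defining neutrophil markers, *S100a8* was at −4.21 and 1.39 in reporter+ libraries 2 and 3 and at −1.14 in reporter- library 3, *Mpo* at −5.75 in reporter+ and −6.79 in reporter- library 3, and *Ly6g* at −4.34 in reporter+ library 3 alone. *Elane* went the other way, at −4.24 and −5.31 in reporter- libraries 2 and 3 and blank in both reporter+ libraries. *S100a9* had no value in any library. The summed level of the list was 0.379 and 4.15 in reporter+ libraries 2 and 3 and 0.331 and 1.07 in reporter- libraries 2 and 3, so that reporter+ library 3 stood highest, and *S100a8* made up 63.1% of its sum. For the mast cell list, the sums were 0.0659 and 0.0979 in reporter+ and 0.0936 and 0.272 in reporter- libraries.

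Endothelium is known for *Slco2a1*, *Ptgis* and *Ptgs1* expression. Of 10 endothelial markers, 9 had a value in all libraries and 8 of these had a mean log2 value below 0. None was higher in reporter+ cells within both pairs (beside 22.1% of all genes), and 7 were lower within both (beside 24.8%). For 4 (*Pecam1*, *Cdh5*, *Kdr* and *Emcn*), both reporter+ libraries were below both reporter- libraries, beside 8.1% of all genes. The summed linear level of the endothelial list was 4.08 and 3.65 in reporter+ libraries 2 and 3 and 5.32 and 6.86 in reporter- libraries 2 and 3. *Egfl7* gave 35.6% to 57.0% of it, and without this gene the sums were 1.75 and 1.65 against 3.31 and 4.41. *Cdh5* had log2 values of −4.75 and −6.40 in reporter+ and −1.97 and −0.67 in reporter- libraries. Of 6 markers of mural cells, 5 were lower in reporter+ cells within both pairs, beside 24.8% of all genes. The median of the 6 was −1.06, and their summed level was 5.27 and 15.8 in reporter+ and 13.5 and 25.1 in reporter- libraries. *Acta2* gave 46.6% to 79.9% of it, and without this gene the sums were 2.81 and 3.18 against 4.36 and 5.13. Of the genes named above as endothelial, *Slco2a1* differed by −0.82, *Ptgs1* by −0.55 and *Ptgis* by −0.06, and since the genes were selected on these differences, nothing is read from their shared sign. The part of these cells in the differences was not tested. With limma, 0 genes of these marker lists had an adjusted p under 0.05. A block for the number brought the limma adjusted p under 0.05 for 2 macrophage markers (*Tyrobp* and *C1qb*, 0.0437 each) and 1 stromal marker (*Lum*, 0.0121), all higher in reporter+ cells.

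**Figure D3:**
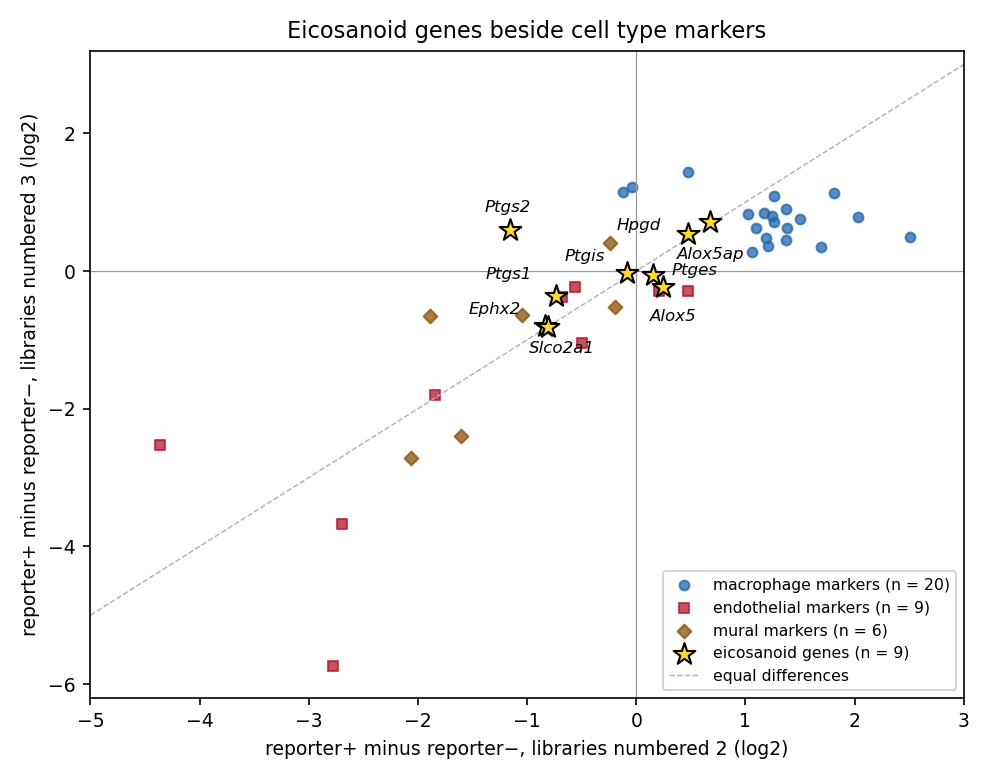
Reporter+ minus reporter- log2 difference in the libraries numbered 2 (horizontal axis) and in those numbered 3 (vertical axis) for the 9 genes (stars) and for markers of macrophages, endothelium and mural cells that every library listed. The macrophage markers lie above 0 on average in both pairs (medians 1.25 and 0.77), *Alox5ap* is at 0.68 and 0.72, and *Slco2a1* and *Ephx2* lie side by side below 0 on both axes.

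The other genes of the same pathways were taken from 8 lists by function, 76 genes in all, of which 61 had a value in every library, 7 in some and 8 in none. With limma, 0 of the 61 passed an adjusted p under 0.05 in either direction, and 0 had an unadjusted p under 0.05, beside 0.909% of all genes. With a block for the number, 12 of the 61 had a limma unadjusted p under 0.05, a larger share than the 913 of all 14415 genes. None of the 61 then had an adjusted p under 0.05. As the lists were chosen with earlier results of these data known, nothing is read from this share. The SEs of the pathway genes below are those of the fit without a block, unless stated, and they include the gap between numbers. With the block, the SE was 0.17 for *Ggt5*, 0.46 for *Fpr1*, 0.15 for *Ephx1*, 0.21 for *Ptgfr*, 0.16 for *Ptgir* and 0.34 for *Ptger3*. It was 0.11 for *Cbr2*. The block did not lower every SE, and that of *Ephx3* was 0.76 with it and 0.66 without it. Both reporter+ libraries were above both reporter- libraries for 5 of the 61 (8.20%, compared with 7.59% of all genes) and below for 7 (11.5%, compared with 8.1%). Their median log2 difference was −0.03. The number of the library made the larger difference for 46 of the 61, close to the share over all genes.

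Of the arachidonate-releasing enzymes, *Pla2g4a*, the cytosolic phospholipase A2, had log2 values of 2.97 and 3.48 in reporter+ and 3.50 and 2.82 in reporter- libraries 2 and 3, with pairs of opposite sign (−0.53 and 0.66). This is the sign pattern of *Ptgs2*, −1.16 and 0.59. *Pla2g6*, a calcium-independent phospholipase A2, was lower in reporter+ cells without overlap (−0.19 in each pair, SE 0.24), as was *Mgll*, which frees arachidonate from an endocannabinoid, at −0.24 and −2.39 against −0.18 and −0.07 (log2 difference −1.19, SE 0.79). The *Mgll* difference came almost wholly from reporter+ library 3, with −0.06 and −2.32 in the pairs. The differences of *Pla2g6* and *Mgll* were each under 2 SE without a block. With the block for the number, the SE was 0.19 for *Pla2g6* and 0.47 for *Mgll*.

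Of the 9 other prostanoid synthase and reductase genes, 2 were higher in reporter+ cells without overlap (22.2%, beside 7.59% of all genes), *Hpgds* and *Tbxas1*, and none was lower without overlap. *Hpgds*, the hematopoietic prostaglandin D2 synthase, had log2 values of −2.03 and −1.72 in reporter+ and −3.12 and −2.30 in reporter- libraries 2 and 3 (log2 difference 0.83, SE 0.53, limma adjusted p = 1). *Tbxas1*, the thromboxane synthase of platelets and macrophages, had −2.32 and −2.01 against −3.49 and −2.58 (0.87, SE 0.56, limma adjusted p = 1). Both had the direction of the macrophage markers given above, whose part was not tested. The remaining prostaglandin E2 synthases were nearly level, *Ptges2* at −0.15 (SE 0.31) and *Ptges3* at −0.03 (SE 0.26). *Cbr2*, a carbonyl reductase, was higher in reporter+ cells by 0.64 and 0.73 in the pairs, with populations that overlapped (6.26 and 3.71 against 5.62 and 2.98). For export and breakdown, *Ptgr1*, the prostaglandin reductase next to Hpgd in the pathway, had 3.92 and 3.96 against 3.82 and 3.91, a difference of 0.08 (SE 0.14), and *Abcc4*, a prostaglandin exporter, gave −0.17 and 0.31 in the pairs.

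Of the 4 prostaglandin E2 receptor genes, *Ptger2*, *Ptger3* and *Ptger4* were higher in reporter+ cells within both pairs and *Ptger1* had opposite signs, and the populations overlapped for each. *Ptger4* had log2 values of 2.83 and 3.76 in reporter+ and 2.80 and 2.86 in reporter- libraries 2 and 3, and its difference of 0.46 (SE 0.34) came almost wholly from reporter+ library 3. *Ptger3* was set apart by number, at −4.08 and 1.73 against −4.51 and 0.90, a gap of 5.61 between numbers and a difference of 0.63 (SE 2.68) between populations. *Ptger1* and *Ptger2* differed by −0.03 (SE 0.32) and 0.27 (SE 0.64). The prostaglandin F receptor *Ptgfr* had 5.97 and 5.14 against 5.90 and 4.05 (0.58, SE 0.69). The prostacyclin receptor *Ptgir* had 1.36 and 2.80 against 2.04 and 3.00 (−0.45, SE 0.60), and *Tbxa2r*, the thromboxane receptor, gave −0.46 and −0.53 in the pairs (SE 0.51). Of the 9 genes of the receptor list with values, 5 were higher and 2 lower in both pairs, beside 22.1% and 24.8% of all genes. None was without overlap. The 5 include *Ptgfrn* (0.01 and 0.11 in the pairs), which is not itself a prostanoid receptor.

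On the leukotriene side, *Lta4h*, which makes leukotriene B4, was level (−0.02, SE 0.18). *Ltc4s*, the leukotriene C4 synthase, had log2 values of −2.37 and −0.92 in reporter+ and −3.17 and 0.09 in reporter- libraries 2 and 3, with pairs of opposite sign. *Mgst2*, a microsomal glutathione transferase that can also make leukotriene C4, was higher in reporter+ cells without overlap, at 1.68 and 1.19 against 1.12 and 0.61 (0.57, SE 0.32, limma adjusted p = 1). *Abcc1*, an exporter of leukotriene C4, was lower without overlap (−0.19, SE 0.13). *Ggt5*, which cleaves leukotriene C4, had 3.51 and 4.62 against 2.26 and 4.10 (0.89, SE 0.73). A value in every library was listed for 4 leukotriene and lipoxin receptor genes. Of these, 2 were higher in both pairs (beside 22.1% of all genes), 1 was lower in both (beside 24.8%) and 1 had opposite signs. The higher ones were *Cysltr1*, a receptor for cysteinyl leukotrienes, with a mean of −3.85 in reporter+ and −5.08 in reporter- cells (1.23, SE 1.18), and *Fpr1*, a formyl peptide receptor of phagocytes, at −3.94 and −0.38 against −5.79 and −2.17 (1.82, SE 1.76). For the leukotriene B4 receptors, *Ltb4r2* gave −0.07 and −1.01 in the pairs and *Ltb4r1* gave 0.03 and −0.04.

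Of the epoxide genes, *Ephx1*, the microsomal epoxide hydrolase, had log2 values of 6.63 and 5.61 in reporter+ and 6.88 and 6.35 in reporter- libraries 2 and 3, lower in both pairs (−0.25 and −0.74) like *Ephx2*. Its difference of −0.49 (SE 0.41) did not set the populations apart. *Ephx3* was lower without overlap (−6.02 and −5.91 against −5.30 and −4.91). *Ephx4* was higher without overlap (−3.57 and −6.02 against −6.05 and −6.03), and its difference came almost wholly from reporter+ library 2. The cytochrome P450 genes *Cyp2u1* (−0.44, SE 0.29), *Cyp1b1* (−0.20, SE 0.14) and *Cyp4f16* (−0.07, SE 0.18) were also lower in reporter+ cells without overlap. Of the 11 genes of this list with values, 6 were lower and 1 higher in both pairs, beside 24.8% and 22.1% of all genes, with a median of −0.20. Nothing particular to this list is read from so few genes.

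**Figure D4:**
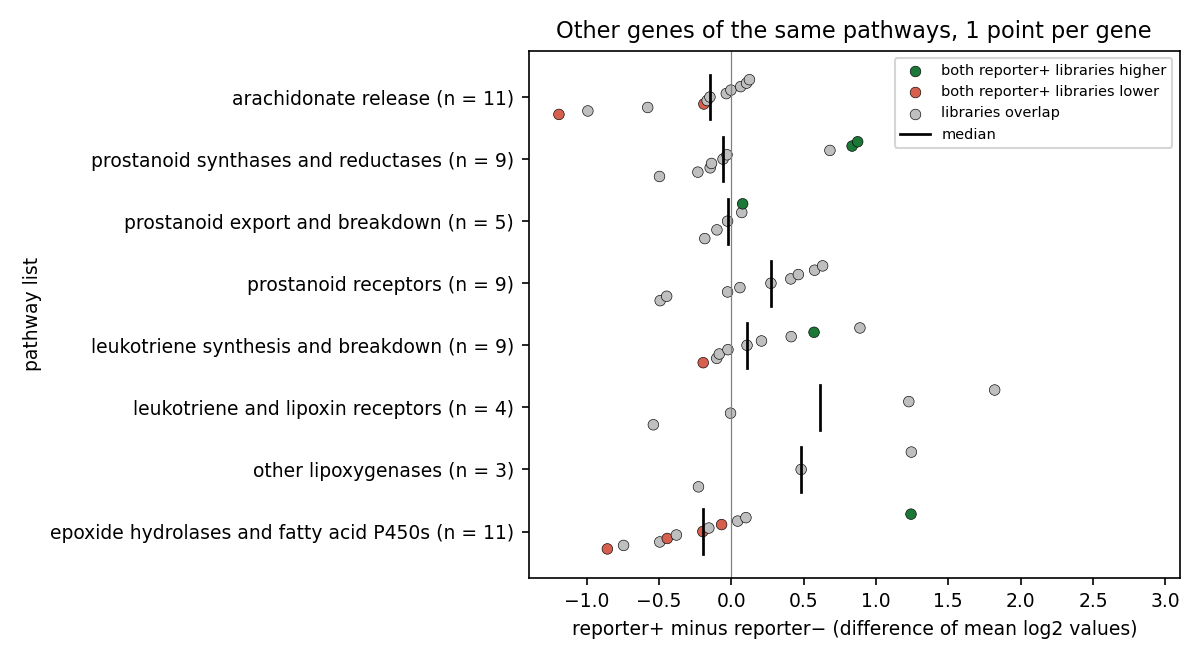
Reporter+ minus reporter- difference of mean log2 values (horizontal axis) for 61 other genes of the eicosanoid pathways in 8 lists (vertical axis), 1 point per gene with the list median as a line. Green marks the 5 genes whose reporter+ libraries are both higher and red the 7 whose reporter+ libraries are both lower.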

How the data were processed

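Per the labels, stranded paired-end Illumina libraries of total RNA were sequenced, 2 for each population, and grouped by reporter. The submitters' processing notes name bcl2fastq 2.17.1.14, Partek 7.0 and GRCm38.p6. The aligner, counting, annotation and filters are not given in the sources used here. The authors deposited quantile-normalized log2 values, 1 per gene symbol and library, with a blank where no signal was listed, so that depth and precision per library are unknown. Quantile normalization gives every library the same distribution, which hides a shift shared by all genes.

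Differences are the mean of the reporter+ minus the mean of the reporter- libraries. Across all genes with a value in all 4 libraries, limma 3.58.1 in R 4.3.3 was fitted (lmFit, eBayes with a trend, two-sided, no block), with Benjamini-Hochberg adjustment and a threshold of 0.05. With 2 libraries against 2, an exact two-sided permutation test of 1 gene cannot give a p below 0.333. The members and lists were chosen with earlier results of these data known. Named are all 10 members, pathway genes without overlap between populations or next to a member in function, and the nearest genes by distance. *Pla2g4a*, *Abcc4*, *Cbr2*, *Ggt5*, *Cysltr1*, *Fpr1*, *Postn*, *Lum*, *Dcn*, *Ly6a*, *Tyrobp* and *C1qb* were named after their values were seen. Summaries used Python 3.11.15, numpy 2.4.6 and pandas 2.3.3, and plots matplotlib 3.10.9. Positions are those of RefSeq. Alternatives were a block, no variance trend, a filter on low values, filled blanks, a pseudocount of 1 and leaving out each library.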

Additional observations from a re-analysis of the deposited data

How the results depend on the processing

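With the number in the column heading as a replicate block, the adjusted p of limma was under 0.05 for 29 genes of all 14415 in place of 0, 3 of them cell type markers, beside 913 with an unadjusted p under 0.05. For the 61 other pathway genes it stayed at 0, beside 12 with an unadjusted p under 0.05, and no difference between means was altered. The deviations of libraries from their population mean had a correlation of 0.681 between libraries of the same number, while neither the labels nor the methods say that the number pairs them. No other setting run gave a gene with an adjusted p under 0.05, beside 62 (of the 10224 genes left by the filter on low values) to 273 with an unadjusted p under 0.05. In fits without 1 library, the lone library of a population is assumed to vary like the other population. When single libraries were left out, the log2 difference ranged from −0.98 to −0.66 for *Slco2a1* and from 0.29 to 1.11 for *Alox5ap*, which kept their direction. It changed sign for the other 7 genes, with ranges of −1.29 to 0.20 for *Ptgs1*, −1.07 to 0.50 for *Ptgs2*, −0.19 to 0.28 for *Ptges*, −0.35 to 0.24 for *Ptgis*, −1.25 to 2.26 for *Hpgd*, −0.36 to 0.37 for *Alox5* and −1.78 to 0.16 for *Ephx2*. Leaving out 1 library leaves the numbers unbalanced, so that part of the gap between numbers enters these values. With a pseudocount of 1, *Alox5* gave −0.0022, and the other 8 kept their direction, while *Hpgd* went from 0.51 to 0.19, *Ephx2* from −0.81 to −0.38 and *Alox5ap* from 0.70 to 0.46. The filter on low values left 6 of the 9 genes, and their median difference was −0.17. Depth is unknown, so that its limit on low genes such as *Alox5* and *Ptgds* cannot be given.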
